A study of Oryza sativa with 6 samples.

Results

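Transcript levels of 9 DNA replication genes were compared between rice panicles of wild-type Nipponbare and of Nipponbare plants that overexpress OsEXPA7. The 9 loci were taken by their identifiers from the 42189 loci of the deposited table: the MCM helicase subunits MCM2 (LOC_Os11g29380), MCM3 (LOC_Os05g39850), MCM4 (LOC_Os01g36390), MCM5 (LOC_Os02g55410), MCM6 (LOC_Os05g14590) and MCM7 (LOC_Os12g37400), the sliding clamp PCNA (LOC_Os02g56130), and the ribonucleotide reductase subunits RNRL1 (LOC_Os06g07210) and RNRS1 (LOC_Os06g14620). Each genotype had 3 libraries, labelled as biological replicates from panicle under a treatment called natural in both groups. The wild type carries the genotype entry EXPA7 and the other group EXPA7_OE. The labels are silent on the promoter of the transgene, the number of transgenic lines, the age of the plants and the stage of the panicles. They also do not say that replicates came from separate plants, and p-values then measure library-to-library spread, which may be technical.

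MCM2 to MCM7 form the ring that is loaded at replication origins. During S phase that ring becomes the core of the helicase that unwinds the parental strands. PCNA is the ring that holds DNA polymerases on their template, and ribonucleotide reductase makes the deoxyribonucleotides that the polymerases use, with a large catalytic and a small radical-bearing subunit. In plants these transcripts are best known from tissues with dividing cells, such as meristems and young panicles. In bulk tissue, more cells that hold these transcripts and more transcript per cell cannot be told apart.

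Expression was given as TPM, a length-scaled share of a fixed transcript total, so levels can be compared between genes but carry no read depth. The locus paired with OsEXPA7, LOC_Os03g60720, ranged from 882 to 964 TPM among the wild-type libraries and from 4323 to 5077 TPM among the overexpression libraries. The table itself does not name that locus; its pairing with OsEXPA7 comes from general knowledge. Libraries of one genotype correlated across loci at 0.991 to 0.993 on the log2(TPM + 1) scale, and libraries of different genotypes at 0.948 to 0.953. The labels name no batch, so genotype and any condition of harvest or library preparation shared by a whole group cannot be told apart.

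All 6 MCM genes, PCNA and RNRL1 were higher in the overexpression panicles, by 16.2% to 56.0% of the wild-type mean, and RNRS1 did not pass the test. The threshold was a Benjamini-Hochberg adjusted p under 0.05 by limma on log2(TPM + 1), adjusted over all 23395 loci that reached 1 TPM in 3 or more libraries, a filter that all 9 members passed. Thus 8 of the 9 were called higher and 0 lower, where 42.8% of all tested loci were called, 25.3% higher and 17.5% lower. That split of all loci depended on the scaling: the deposited values gave 5911 higher and 4091 lower calls, median-of-ratios scaling 5112 and 4975, and quantile normalization 4598 and 5467. The median log2 change of the 9 was 0.41, beside 0.06 for all tested loci, and none of the 9 reached a 2-fold change. For the same 8 members each overexpression library lay above each wild-type library, which held for 31.3% of all tested loci (53.7% had groups apart in either direction). The 8 calls fell to 5 without wild-type replicate 1, overexpression replicate 2 or overexpression replicate 3. MCM7, PCNA and RNRL1 then missed the threshold. Every fit that left out 1 library also called fewer loci in all, 7971 to 9644 instead of 10002. With median-of-ratios scaling or quantile normalization, 6 of the 8 calls were left. MCM2 to MCM6 passed under all 15 alternatives tried.

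**Figure D1:**
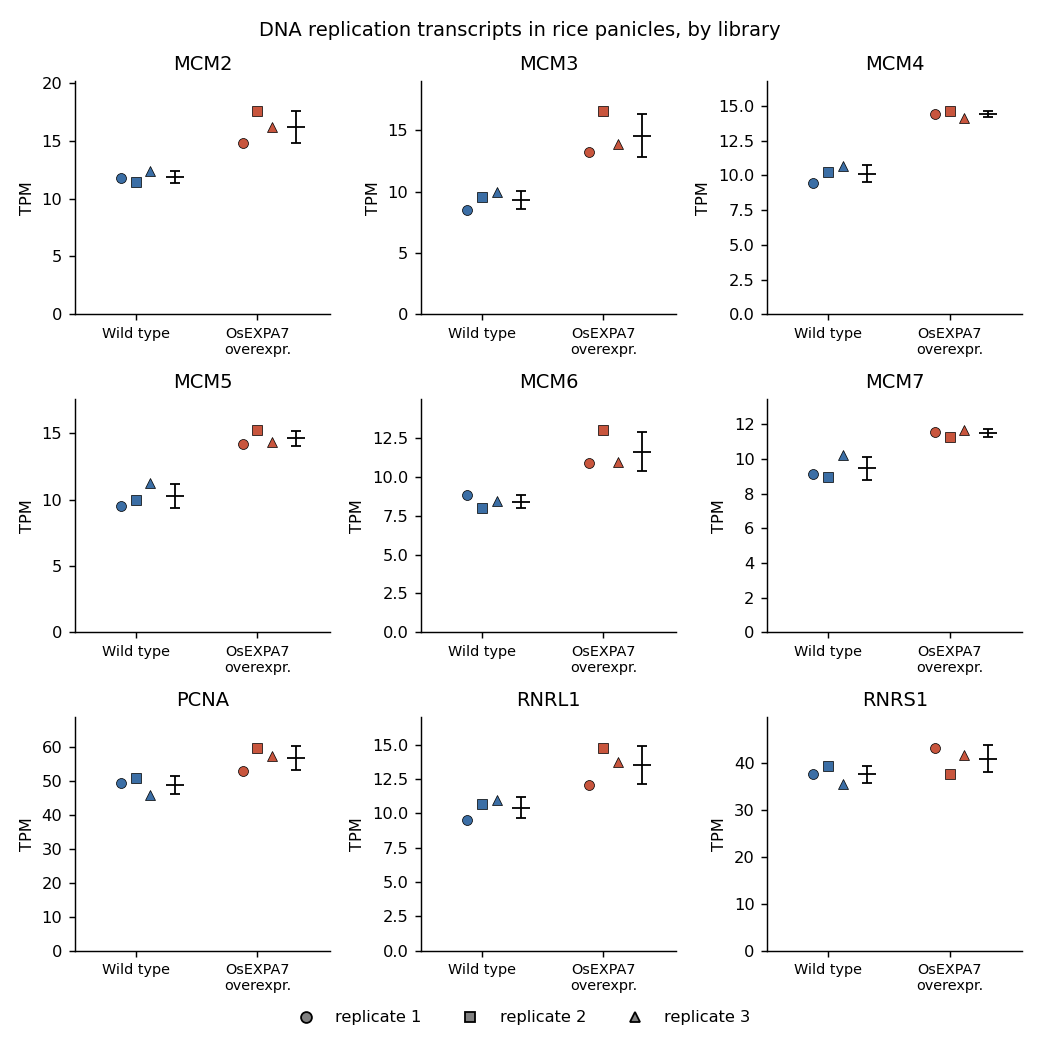
TPM of each of the 9 genes (vertical axes, each from 0) in the 3 wild-type libraries (blue) and the 3 OsEXPA7 overexpression libraries (red), with a symbol for each replicate and the mean ± SD in black. The groups are apart for every gene except RNRS1, where overexpression replicate 2 (37.7 TPM) lies within the wild-type range of 35.6 to 39.3 TPM.

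Among the helicase subunits MCM3 showed the largest change. MCM3, which sits beside MCM5 in the ring, measured 8.51, 9.55 and 9.95 TPM in wild type and 13.3, 16.5 and 13.9 TPM with overexpression. The lowest overexpression library exceeded the highest wild-type library by 3.30 TPM, and overexpression replicate 2 was the highest of all. The mean rose from 9.34 ± 0.746 to 14.6 ± 1.74 TPM (SD, n = 3), a 1.56-fold difference, at a log2 change of 0.59 ± 0.10 (SE) and an adjusted p of 0.00181 by limma. Of all tested loci, 8.64% had a log2 change at least as high. The ratios of MCM3 to MCM4 and to MCM5 overlapped between the groups, while those to MCM2, MCM6 and MCM7 did not. Without overexpression replicate 2 the log2 change was 0.50 for MCM3, 0.46 for MCM4 and 0.44 for MCM5. Differences between the changes of these genes were not tested.

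MCM4 and MCM5 gave nearly the same increase as each other. MCM4, which belongs to the catalytic side of the ring in yeast and animals, measured 9.45, 10.2 and 10.7 TPM in wild type and 14.4, 14.6 and 14.2 TPM with overexpression. Its overexpression libraries differed by a factor of only 1.03 between highest and lowest, and none came near the wild-type values. The means were 10.1 ± 0.614 and 14.4 ± 0.222 TPM (SD, n = 3), with a log2 change of 0.47 ± 0.08 (SE) and a limma adjusted p of 0.00133, the lowest among the 9 members. MCM5, known in yeast and animals for forming with MCM2 the gate through which DNA enters the ring, measured 9.54, 9.998 and 11.3 TPM in wild type and 14.2, 15.3 and 14.4 TPM with overexpression. The groups were 2.97 TPM apart at their nearest libraries. The MCM5 means were 10.3 ± 0.889 and 14.6 ± 0.574 TPM (SD, n = 3), with a log2 change of 0.47 ± 0.09 (SE) and an adjusted p of 0.00214 by limma.

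MCM2 and MCM6 rose by slightly smaller factors than MCM3, MCM4 and MCM5. Their ratios to MCM4 and to MCM5 overlapped between the groups, and the differences were not tested. The order was also unsteady: without wild-type replicate 1 the log2 change was 0.45 for MCM6 and 0.43 for MCM4 and MCM5. MCM2, whose amino-terminal part binds histones in yeast and animals, measured 11.7, 11.4 and 12.4 TPM in wild type and 14.8, 17.5 and 16.2 TPM with overexpression. It was the most abundant of the 6 MCM transcripts in every library. Its mean rose 1.36-fold, from 11.9 ± 0.496 to 16.2 ± 1.37 TPM (SD, n = 3; log2 change 0.41 ± 0.08 SE, limma adjusted p = 0.0042). MCM6, a partner of MCM4 and MCM7 in the subcomplex that unwinds DNA in the test tube in mammals, measured 8.79, 7.96 and 8.43 TPM in wild type and 10.9, 13.0 and 10.9 TPM with overexpression. Replicate 2 was again the highest overexpression library, with the other two nearly equal. Its mean rose 1.38-fold, from 8.39 ± 0.414 to 11.6 ± 1.22 TPM (SD, n = 3; log2 change 0.42 ± 0.10 SE, limma adjusted p = 0.00689).

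MCM7 had the smallest change of the helicase subunits. It measured 9.15, 8.99 and 10.2 TPM in wild type and 11.6, 11.3 and 11.7 TPM with overexpression, so that only 1.01 TPM separated the nearest libraries of the groups. The means were 9.46 ± 0.682 and 11.5 ± 0.231 TPM (SD, n = 3), a 1.22-fold difference with a log2 change of 0.26 ± 0.08 (SE) and a limma adjusted p of 0.0325. This call was lost without wild-type replicate 1 or 2, without any single overexpression library, with either rescaling and with the replicate number as a block (limma adjusted p = 0.0572), at adjusted p-values up to 0.111. It was the only MCM gene whose call was lost under any of the alternatives tried.

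PCNA was the most abundant of the 9 transcripts and changed by a smaller factor than MCM2 to MCM6. It measured 49.4, 50.9 and 45.9 TPM in wild type and 52.9, 59.8 and 57.2 TPM with overexpression. The groups did not overlap, but the gap of 1.99 TPM was smaller than the range within either group. The mean rose 1.16-fold, from 48.7 ± 2.56 to 56.6 ± 3.47 TPM (SD, n = 3), and the log2 change was 0.21 ± 0.07 (SE) at a limma adjusted p of 0.0306. The call was lost without wild-type replicate 1 or 3, without overexpression replicate 2 or 3, with either rescaling and without the variance trend, at adjusted p-values up to 0.177 under quantile normalization.

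The reductase subunits are encoded in rice by small gene families, and mutations in RNRL1 and in RNRS1 are known for pale or striped leaves. Neither labels nor table say how reads shared by such relatives were assigned, which leaves both levels uncertain in that respect. RNRL1, the large subunit, measured 9.53, 10.7 and 11.0 TPM in wild type and 12.04, 14.8 and 13.8 TPM with overexpression. The groups stood 1.03 TPM apart, with overexpression replicate 1 nearest to the wild type. The mean rose 1.30-fold, from 10.4 ± 0.783 to 13.5 ± 1.39 TPM (SD, n = 3), and the log2 change was 0.35 ± 0.10 (SE) at a limma adjusted p of 0.0198. It missed the threshold without wild-type replicate 1, overexpression replicate 2 or overexpression replicate 3, with adjusted p-values of 0.0636 to 0.0729.

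RNRS1, the small subunit, measured 37.7, 39.3 and 35.6 TPM in wild type and 43.3, 37.7 and 41.7 TPM with overexpression. Replicate 2, the overexpression library in which 7 of the 9 members were at their highest within the group, was the lowest for RNRS1, and it overlapped the wild type. The means were 37.5 ± 1.90 and 40.9 ± 2.89 TPM (SD, n = 3). The log2 change of 0.12 ± 0.07 (SE) had a 95% interval of -0.04 to 0.28 and an adjusted p of 0.212 by limma. It did not pass under any of the 15 alternatives, and its size was unsteady: 0.08 without overexpression replicate 1 or without wild-type replicate 3, 0.17 without overexpression replicate 2 and 0.01 after quantile normalization.

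**Figure D2:**
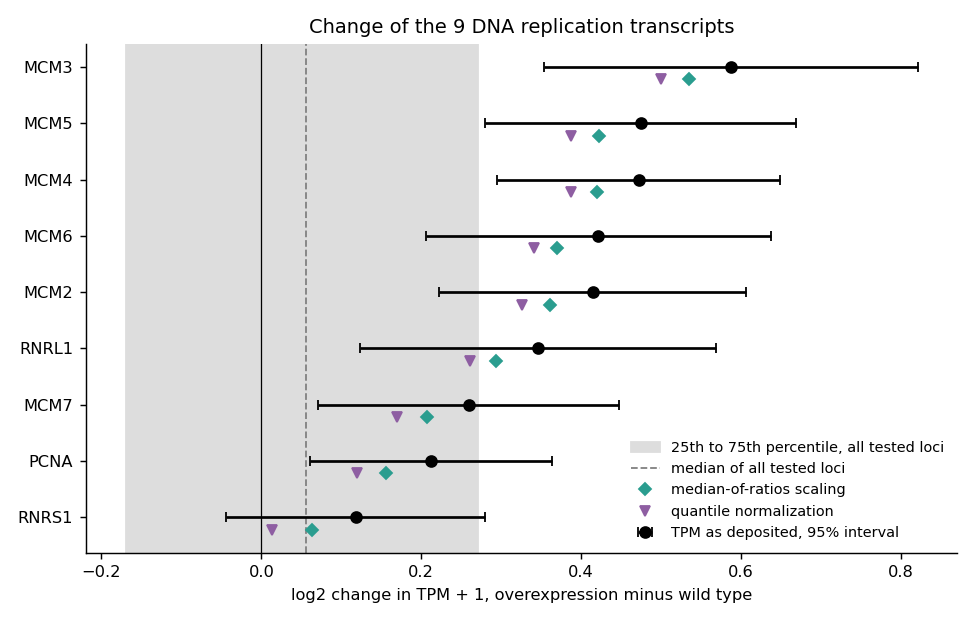
Log2 change in TPM + 1 (overexpression minus wild type, horizontal axis) of each gene, with the 95% interval from limma in black, and the change after median-of-ratios scaling (green) or quantile normalization (purple). The dashed line is the median of all tested loci (0.06) and the grey band the span from their 25th to their 75th percentile (-0.17 to 0.27); MCM2 to MCM6 and RNRL1 lie above that band as deposited, and MCM7, PCNA and RNRS1 within it.

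The log2 changes of all 9 genes were smaller under both rescalings, as was the median of all tested loci, which went from 0.06 to -0.02 under quantile normalization. Median-of-ratios scaling divides each library by 1 factor, here between 0.967 and 1.05, and left MCM3 1.498-fold, MCM4 and MCM5 1.37-fold, MCM6 1.33-fold and MCM2 1.31-fold higher in the ratio of group means. RNRL1 stood at 1.25-fold, MCM7 at 1.17-fold, PCNA at 1.11-fold and RNRS1 at 1.05-fold. The summed level of the 6 MCM genes was 57.2, 58.2 and 62.9 TPM in wild type and 79.1, 88.2 and 81.2 TPM with overexpression as deposited. After the same scaling it was 59.1 to 62.1 against 79.3 to 83.8, so the summed MCM level stayed apart between the groups and its fold went from 1.39 to 1.34. The library factor also moved with the order within groups: wild-type replicate 3 and overexpression replicate 2 had the highest factor of their group and each held the highest deposited value of 5 of the 6 MCM genes, against 3 and 4 of 6 after scaling.

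**Figure D3:**
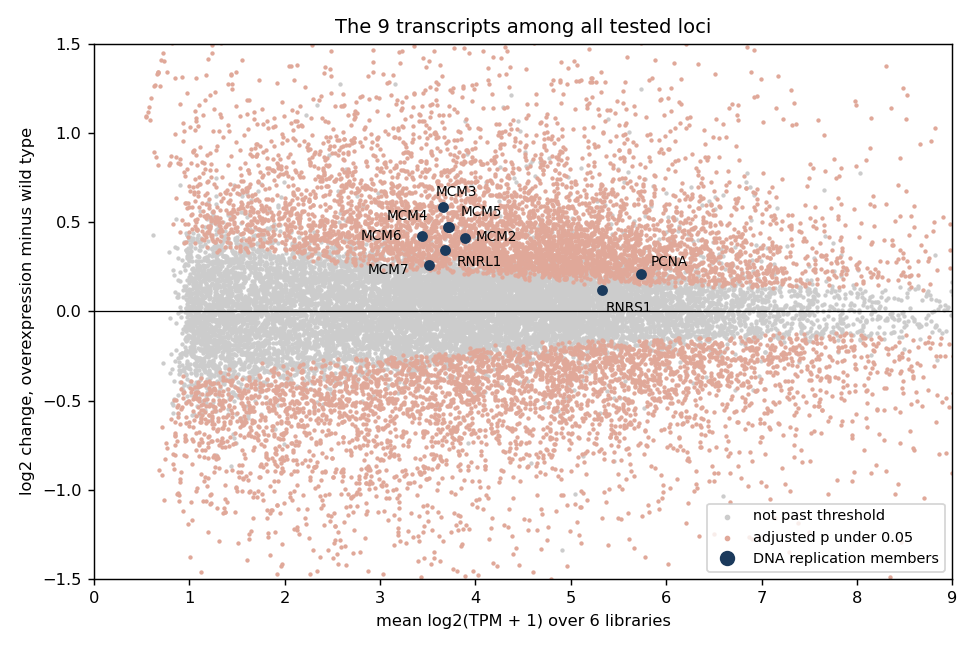
Log2 change (overexpression minus wild type) against mean log2(TPM + 1) for the tested loci, coloured by whether the limma adjusted p was under 0.05, with the 9 genes in dark blue; 672 loci lie outside the axes. Of the 8 genes past the threshold, MCM2 to MCM6 and RNRL1 sit among the higher loci and not at their upper edge. MCM7 and PCNA lie below the 75th percentile of the changes of all tested loci. MCM7 and PCNA passed only narrowly (limma adjusted p 0.0325 and 0.0306), and RNRS1 lies among the loci that did not pass. MCM3 is exceeded or equalled by 8.64% of the tested loci and RNRS1 by 42.0%.

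By level, the 9 genes fell into a high pair and a lower group of 7. PCNA was above RNRS1 in every library, by a factor of 1.29 to 1.31 in wild type and 1.22 to 1.59 with overexpression, and the lowest RNRS1 library (35.6 TPM) was above the highest value of any of the remaining 7 (17.5 TPM, MCM2 in overexpression replicate 2). By the median of its ranks over the libraries, PCNA stood above 90.5% of the loci in the table, RNRS1 above 87.4%, and the MCM genes and RNRL1 above 66.0% to 70.5%. That base holds many loci below 1 TPM: only 23058 to 23176 of the 42189 loci reached 1 TPM in a library. The ranks of the MCM genes and RNRL1 ran from 11182 to 15356. RNRL1 could not be separated from the MCM level, at 0.913 to 1.11 times the mean MCM TPM over the 6 libraries. Within the helicase, the highest subunit was 1.36 to 1.56 times the lowest in any library. MCM2 was always the highest, while the lowest was MCM3 in wild-type replicate 1, MCM7 in overexpression replicate 2 and MCM6 in the other 4 libraries.

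Proportions within a library do not change when the library is divided by 1 factor, as in median-of-ratios scaling; they were not recomputed after quantile normalization, which can change them. The share of MCM3 in the summed MCM level was 14.9% to 16.4% in wild type and 16.7% to 18.8% with overexpression. That of MCM7 was 15.5% to 16.3% in wild type and 12.8% to 14.6% with overexpression. The groups did not overlap for either share, MCM3 being higher and MCM7 lower with overexpression. Groups that do not overlap are common in these libraries for TPM levels, at 53.7% of all tested loci. That rate was not computed for ratios between other loci. Of the 15 ratios between pairs of MCM genes, 5 were apart, and each of these involved MCM3 or MCM7. Those ratios restate the shares and give no background for them. The shares of MCM2, MCM4, MCM5 and MCM6 overlapped between the groups, their means lying between 14.0% and 20.0%. PCNA was 4.38 to 5.25 times the mean MCM level in wild type and 4.01 to 4.22 times with overexpression, again without overlap. The level of RNRS1 relative to RNRL1 was 3.23 to 3.96 in wild type and 2.54 to 3.59 with overexpression, and these ranges overlapped. These proportions were not tested.

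**Figure D4:**
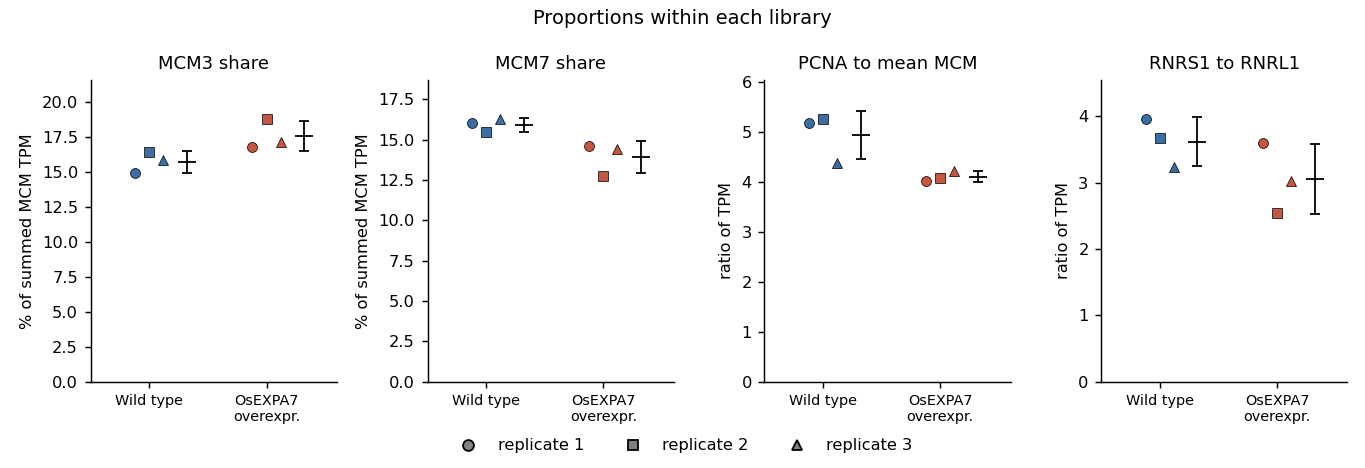
Share of MCM3 and of MCM7 in the summed TPM of the 6 MCM genes (percent), and the ratios of PCNA to the mean MCM level and of RNRS1 to RNRL1 (TPM over TPM), in each library, with symbols as replicates and mean ± SD in black. The MCM3 share is higher and the MCM7 share and the PCNA ratio are lower in all 3 overexpression libraries, while the reductase ratio overlaps between the genotypes.

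Other loci had profiles close to the mean profile of the 9. Likeness was measured as the root mean square difference between profiles of log2(TPM + 1), each centred on its own mean, over the 6 libraries. The closest locus outside the 9 was LOC_Os04g49560, at a difference of 0.0102, with wild-type values of 29.7 to 31.8 TPM against 38.98 to 42.3 TPM with overexpression. The next was LOC_Os06g03970, at 0.0131, with wild-type values of 119 to 126 TPM against 148 to 166 TPM. Among all tested loci, MCM2 ranked 298 in closeness to this mean, the best of the 9, and RNRS1 ranked 7965. Other tested loci thus lay nearer to the mean profile than any of the replication genes that make it up.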

How the data were processed

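RNA from rice panicle was sequenced in 6 libraries, 3 per genotype, grouped by their titles. The authors deposited TPM per locus, scaled to the same total in each library. No aligner or annotation is named in the sources used here. Mouse builds, GRCm38 and mm10, appear in the submitters' processing notes, although the locus identifiers are of the rice form. Depth is unknown, which leaves counting error unmeasured. Members, lists and tests were chosen with earlier results of these data known, and the named loci are the members, OsEXPA7 and the 2 closest profiles. The reference table (ASM3414082v1) lists 7 of the 9 names, each on the chromosome that the identifier gives, but not these identifiers; RNRL1 and RNRS1 were named by the selection rule. Log2(TPM + 1) was fitted with limma 3.58.1 (R 4.3.3, variance trend, two-sided), after a check on simulated data. That check changed a small share of loci and required recovery only of changes of 2-fold or more. Smaller changes were simulated too, but passing did not require their recovery, which is not reported here. Passing the check therefore does not show how well changes of the members' size are recovered. Same-numbered libraries deviated together at 0.10, -0.10 and -0.07 (correlations across loci), which does not establish pairing. Other replication loci, panicle markers, promoters and proteins were not analysed here.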

Additional observations from a re-analysis of the deposited data

How the results depend on the processing

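The 15 alternatives were 2 rescalings, a filter at 5 TPM or none, a pseudocount of 0.1, 3 other variance or weight settings, the replicate block and 6 fits that leave out 1 library each. All 9 members kept their direction under each of them. The median log2 change of the members was 0.33 instead of 0.41 after quantile normalization. MCM7 missed the threshold at 0.21 with median-of-ratios scaling, 0.17 with quantile normalization and 0.26 with the replicate block, which changed no other member's call. PCNA missed it at 0.16, 0.12 and, without the variance trend, 0.21. Leaving out 1 library gave 5 to 7 members past the threshold, with log2 changes of 0.23 to 0.31 for MCM7, 0.17 to 0.26 for PCNA, 0.28 to 0.42 for RNRL1 and 0.08 to 0.17 for RNRS1, and 7971 to 9644 loci in all instead of 10002; the cause was not tested. The OsEXPA7 locus passed under all 15, at log2 changes of 2.29 to 2.64. Depth is unknown, so what it limits could not be measured.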
